A study of Mus musculus with 3 samples.

Results

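The Dlk1 to Dio3 domain is an imprinted stretch of mouse chromosome 12 that holds 10 genes described here: the coding genes Dlk1, Rtl1 and Dio3, the long noncoding genes Meg3, Rian and Mirg, and the microRNA genes Mir379, Mir411, Mir299a and Mir381. Its peaks were taken from 3 ATAC-seq peak lists by position, from 10 kb before the Dlk1 gene body to 10 kb after the Dio3 gene body, chr12:109442485-110291097 on mm10, a window of 848.6 kb. The domain was chosen by measured values, namely that the CSMN list had a peak beside Mir379 and its neighbouring microRNA genes that neither CPN list had, so that pattern is described and not tested. Overlapping peaks of the lists were merged, which gave 99 regions in the domain of 204313 in the genome, built from 169 of 390864 peaks. The 61 CPN 1, 75 CPN 2 and 33 CSMN peaks in the window covered 22.0, 18.3 and 12.4 kb.

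ATAC-seq uses a transposase that cuts and tags open DNA, and a peak marks a stretch where tagged fragments pile up. Callosal projection neurons (CPN), which join the hemispheres, gave 2 libraries, and corticospinal motor neurons (CSMN), which project to the spinal cord, gave 1 library. All 3 came from mouse brain, from FACS sorts of 50000 viable cells each, whose nuclei were treated with transposase at 37 °C. Strain, genotype, age, sex and the sorting marker are not stated in the labels used here, nor is whether a sort pooled animals. With 1 CSMN library there is no replicate check on the CSMN side, so no test between the cell types was made, and the pair of CPN libraries gave the only view of spread between sorts. These are bulk libraries, in which a site open in fewer cells and a site less open in each cell cannot be told apart.

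Genes of the domain are expressed from one parental copy, and the choice of copy is set by a differentially methylated region in the interval between Dlk1 and Meg3. As background, Dlk1, Rtl1 and Dio3 are expressed from the paternal chromosome, while Meg3, Rian and Mirg form a long run of noncoding transcription on the maternal chromosome from which snoRNAs and microRNAs are cut. The microRNAs between Mir379 and Mir410 are abundant in brain, are induced by neuronal activity, and include miR-134, which limits dendritic spine size. The peak lists hold neither alleles nor methylation, so the parental copies were not separated.

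The mature microRNAs of Mir379, Mir411, Mir299a, Mir381 and Mir487b are shown because the CSMN-only peaks at or beside them are the reason the domain was chosen. Those of Mir380, which overlaps a CPN 1 peak, are shown with them. Mir299b and Mir539 also lay within 1 kb of those CSMN-only peaks and are not shown. The sequences come from RefSeq (GRCm38.p6, the assembly named mm10), which held a hairpin for 58 of the 61 microRNA genes of the domain and 113 mature sequences. For Mir487b only the 5p arm was listed, so the seed counts below cover listed sequences only. Capitals mark the seed, bases 2 to 8, which pairs with target messenger RNAs.
miR-379-5p: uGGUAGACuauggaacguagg
miR-379-3p: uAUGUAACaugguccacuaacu
miR-411-5p: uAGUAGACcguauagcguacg
miR-411-3p: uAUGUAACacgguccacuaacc
miR-299a-5p: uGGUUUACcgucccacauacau
miR-299a-3p: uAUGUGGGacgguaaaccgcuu
miR-380-5p: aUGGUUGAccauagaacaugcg
miR-380-3p: uAUGUAGUaugguccacaucuu
miR-381-5p: aGCGAGGUugcccuuuguauauu
miR-381-3p: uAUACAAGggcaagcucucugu
miR-487b-5p: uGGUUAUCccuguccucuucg
The 113 mature sequences carried 104 different seeds, and 9 seeds were each shared by 2 mature microRNAs. Of the microRNAs shown, miR-379-3p and miR-411-3p shared the seed AUGUAAC, while miR-379-5p and miR-411-5p were equal at 6 of 7 seed positions. The seed of miR-379-5p was also that of miR-1193-5p, and the seed of miR-299a-3p was that of miR-299b-3p. The seed of miR-381-3p was not shared within the domain, and that of miR-300-3p, a neighbour from the same block, equalled it at 6 of 7 positions.

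The hairpins of Mir411 and Mir487b are shown whole because they were the microRNA genes that lay inside CSMN-only peaks. Capitals mark the mature arms listed by RefSeq, and both lie on the plus strand at chr12:109710175-109710256 and chr12:109727333-109727414.
Mir411: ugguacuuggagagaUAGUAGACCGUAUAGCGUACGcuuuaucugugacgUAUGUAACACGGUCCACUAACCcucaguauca
Mir487b: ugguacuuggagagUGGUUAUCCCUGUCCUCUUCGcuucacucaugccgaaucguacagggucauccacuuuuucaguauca
Each is 82 bases long, and they shared their first 14 and last 9 bases. Those first 14 bases occurred in 3 of the 58 hairpins.

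The start of Meg3 and the stretch before the start of Dio3 are shown because they are the promoter windows of member genes with the widest peak cover in all 3 libraries. RefSeq windows run from 250 bases before to 50 bases after a start, and for Dio3 only the bases before the start are printed. Capitals mark motif matches, searched on both strands as TGCCGC (ZFP57), CTAAAAATA (MEF2), TGACGTCA (CRE) and AGGGGGC or AGGTGGC (CTCF core).
Meg3, chr12:109540746-109541045, plus strand: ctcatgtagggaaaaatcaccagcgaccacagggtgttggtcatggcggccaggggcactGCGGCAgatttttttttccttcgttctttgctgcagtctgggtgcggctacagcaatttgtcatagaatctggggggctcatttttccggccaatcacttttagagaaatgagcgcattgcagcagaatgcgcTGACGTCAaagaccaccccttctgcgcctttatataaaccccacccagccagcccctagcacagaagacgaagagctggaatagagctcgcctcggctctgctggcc
Dio3, chr12:110278980-110279229, plus strand: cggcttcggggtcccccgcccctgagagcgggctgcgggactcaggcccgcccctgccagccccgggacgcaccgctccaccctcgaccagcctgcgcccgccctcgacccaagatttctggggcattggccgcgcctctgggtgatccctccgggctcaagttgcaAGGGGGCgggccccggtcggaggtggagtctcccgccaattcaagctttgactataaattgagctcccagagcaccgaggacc
The printed Meg3 window held a CRE match at position −57 and a ZFP57 match on the reverse strand at position −190, counted from a start at position 0. Before the Dio3 start there was 1 CTCF core match, at position −83. Of 32851 promoter windows of the same length, 1.79% held the CRE letters, 11.6% the ZFP57 letters, 16.0% a CTCF core and 0.517% the MEF2 letters. A match describes letters only, and no MEF2 match was found in the 29 windows of 17 genes of the domain.

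Across the domain, open chromatin was shared mainly at Dlk1, at the start of Meg3, at the end of Mirg and at several sites in the long interval between Mirg and Dio3, while a wide stretch from Rian to Mir379 had no peak in any library. Regions were sorted by which libraries had a peak in them, with 1 bp of overlap counted as shared. A region called CSMN-only here held a CSMN peak but no CPN peak, a region called CPN-only held peaks of CPN 1 and CPN 2 but no CSMN peak, and the rest had peaks in all 3 libraries, in 1 CPN library alone, or in CSMN and 1 CPN library. The CSMN list was the shortest of the 3, with 98067 peaks over 39.7 Mb against 134018 over 54.7 Mb in CPN 1 and 158779 over 47.2 Mb in CPN 2. Its median fold was 2.86, against 3.82 and 3.68, so a site without a CSMN peak and a site just under the threshold of the CSMN list cannot be told apart.

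A peak in all 3 libraries was found in 21 of the 99 regions, or 21.2% (exact binomial 95% interval 13.6 to 30.6%, counting error only), beside 30.6% of all regions. CSMN-only regions numbered 8, or 8.08% (3.55 to 15.3%), beside 11.8% of all regions and 10.9% of those on chromosome 12. Nothing is read from that count, because the domain was chosen for such a region. CPN-only regions numbered 20, or 20.2% (12.8 to 29.5%), beside 19.4% of all regions, a share near the background.

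Regions with a peak in only 1 CPN library made up much of the rest. There were 31 with CPN 2 alone, 31.3% of the domain (22.4 to 41.4%) beside 20.9% of all regions, and 17 with CPN 1 alone, 17.2% (10.3 to 26.1%) beside 12.9%. CSMN and CPN 1 shared 2 regions that CPN 2 lacked, 2.02% beside 2.11% of all regions. CSMN and CPN 2 shared 0 of 99 that CPN 1 lacked, which allows a share of up to 3.66%, beside 2.37% of all regions. The CPN libraries thus differed from each other in 48 regions without a CSMN peak and in the 2 that CPN 1 shared with CSMN. They held 20 regions together without CSMN and 21 together with CSMN. By library, a CPN 1 peak stood in 60.6% of the domain's regions, a CPN 2 peak in 72.7% and a CSMN peak in 31.3%, beside 65.0, 73.3 and 46.8% of all regions.

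**Figure D1:**
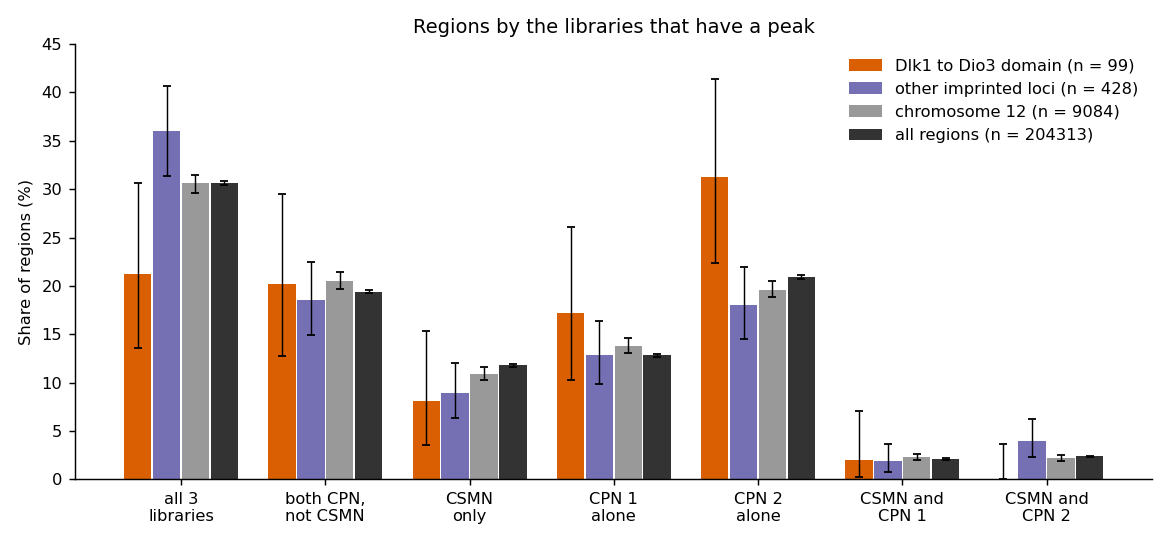
Share of regions (%) by the libraries with a peak, for the 99 regions of the Dlk1 to Dio3 domain, 428 regions at other imprinted loci, 9084 regions of chromosome 12 and all 204313 regions; bars start at 0 and error bars are exact binomial 95% intervals, which cover counting error only. The domain has 31.3% of its regions in CPN 2 alone beside 20.9% of all regions, and 8.08% CSMN-only beside 11.8%.

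The sorts were looked at through peaks within 1 kb of either end of marker genes. Genes that mark CSMN had such peaks in every library, for 5 of 5 in each. Genes of excitatory neurons had them for 4, 5 and 4 of 5 in CPN 1, CPN 2 and CSMN, with none at Slc17a7 in CPN 1 and at Rbfox3 in CSMN. Genes of other cell types had them too, for 5 of 5 interneuron and 5 of 5 endothelial genes in every library, 3, 4 and 3 of 5 astrocyte genes, 3, 3 and 2 of 5 oligodendrocyte genes and 2, 1 and 1 of 5 microglia genes. Over all 21887 protein-coding genes, 69.2% had such a peak in CPN 1, 70.3% in CPN 2 and 66.7% in CSMN. A peak near a gene's end does not show that the gene is expressed, and the part of other cells in the results below was not tested.

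**Figure D2:**
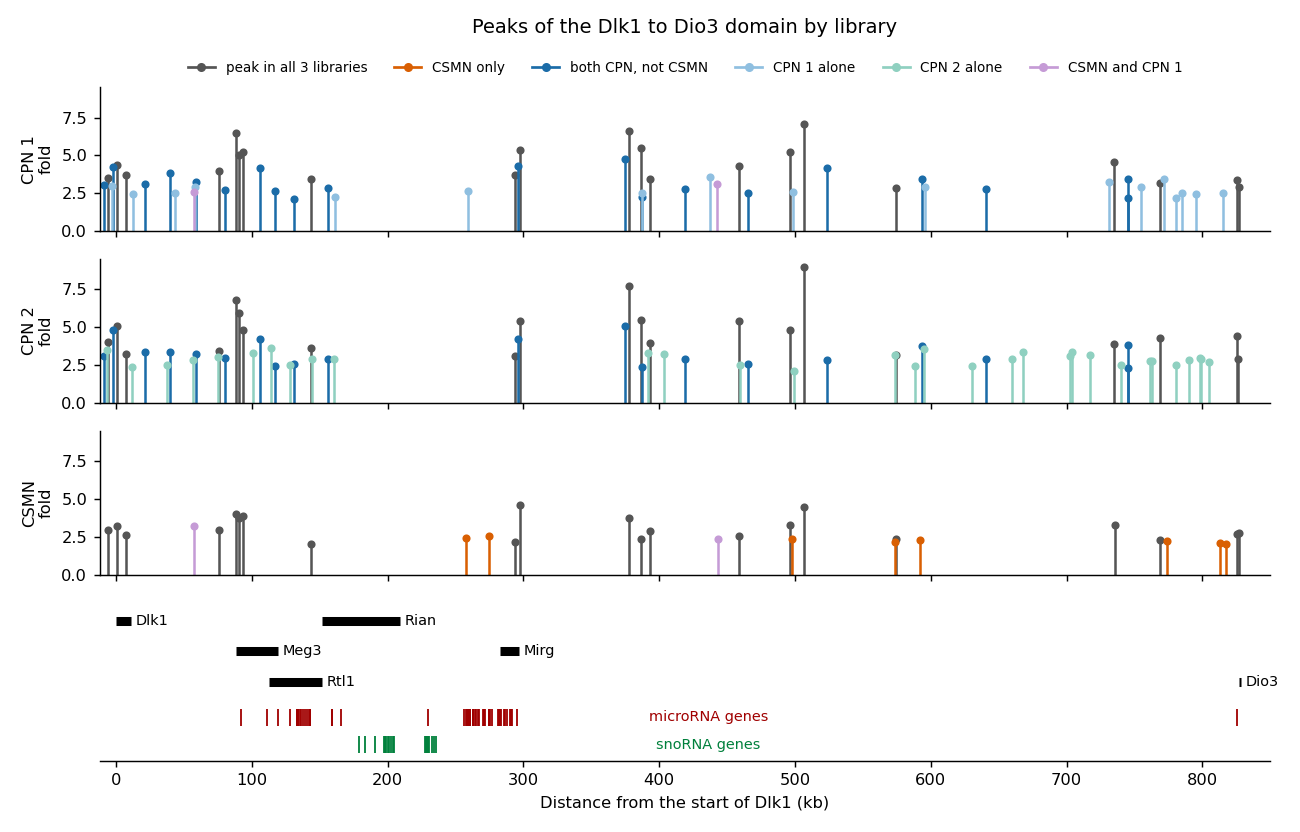
Peaks along the Dlk1 to Dio3 domain by library: distance from the start of Dlk1 (kb) on the horizontal axis and the authors' fold at the summit of the strongest peak in each region on the vertical axes, coloured by class, above the gene bodies of members and the starts of microRNA and snoRNA genes. The stems at the start of Meg3 reach 6.50, 6.80 and 4.02, those at the highest CPN site between Mirg and Dio3 reach 7.05, 8.96 and 4.45, and no stem stands between the last Rian peak and Mir379.

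Of the coding genes that are expressed from the paternal copy, Dlk1 and Dio3 had peaks of all 3 libraries at or near their starts, and Rtl1 had such a region only inside its gene body. Dlk1, which encodes a membrane protein related to Notch ligands, had 2 regions overlapping its body, both with peaks in all 3 libraries. The stronger, chr12:109452832-109453867, lay at the 5′ end of the gene where CPN 1 reached a fold of 4.35, CPN 2 of 5.11 and CSMN of 3.23. A fold is the authors' enrichment at the peak's summit, given per peak, and it can be ranked within a list but not compared between lists. The summits of CPN 1 and CPN 2 lay 1 bp apart there, and the CSMN summit 127 bp from the farther of them. Peaks covered only 41, 0 and 1 bases of the 300-base Dlk1 promoter window in CPN 1, CPN 2 and CSMN. The CPN 1 and CSMN summits lay 439 and 313 bp after the RefSeq start.

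The other Dlk1 region, chr12:109459383-109460222, had folds of 3.72, 3.24 and 2.60. It was weaker in all 3 lists than the region at the 5′ end, and its CPN 1 and CPN 2 summits lay 488 bp apart. A CPN 2 peak without partner, chr12:109463930-109464065, lay 594 bp past the gene with a fold of 2.38. Before Dlk1, a region at chr12:109445892-109446313 had peaks in all 3 libraries (3.49, 4.05 and 2.95), and chr12:109450141-109450404, 2081 bp before the gene body, was CPN-only with 4.24 and 4.84. The −log10 q of that last region was 15.8 in CPN 1 and 18.8 in CPN 2, the latter the highest of the CPN-only regions in that list.

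Rtl1, a gene derived from a retrotransposon, lies opposite microRNA genes that are transcribed antisense to it. The RefSeq gene table gives it a body of chr12:109564900-109604418, which overlaps the end of Meg3 and the start of Rian, so peaks in those overlaps cannot be assigned to a single gene. Of its 6 overlapping regions, 6 had a CPN 2 peak, 3 a CPN 1 peak and 1 a CSMN peak. The region with peaks in all 3, chr12:109595789-109596092, had folds of 3.47, 3.6 and 2.0 and lay 392 bp from Mir3071. The CSMN peak there was close to the threshold, with a −log10 q of 1.32 against a list minimum of 1.30.

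The remaining Rtl1 regions were held by CPN alone. The CPN-only regions were chr12:109569536-109569715, which also lies in Meg3 (2.66 and 2.44), and chr12:109583695-109583943 (2.15 and 2.59). CPN 2 alone had chr12:109566660-109566818 (3.63, in Meg3 as well), chr12:109580354-109580589 (2.48, 39 bp from Mir493) and chr12:109596311-109596425 (2.88). The antisense microRNA genes Mir433 and Mir127 had no peak in any library, with the nearest CSMN peak 4025 and 2948 bp away.

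Dio3 encodes the deiodinase that inactivates thyroid hormone, and its neighbour Dio3os is transcribed in the opposite direction. The region over the Dio3 start, chr12:110278617-110279320, had peaks in all 3 libraries with folds of 2.89, 2.92 and 2.78. The CPN 2 peak ended 20 bp before the gene body, while the CPN 1 and CSMN peaks reached into it. A second region with peaks in all 3, chr12:110277916-110278282, lay over Dio3os and Mir1247, 948 bp before Dio3, with folds of 3.38, 4.41 and 2.66. Peaks covered 300, 231 and 300 bases of the 300-base Dio3 promoter window in CPN 1, CPN 2 and CSMN, with summits at −12, −295 and −139 bp from the start, so the 3 libraries did not share a summit there. The 10 kb after Dio3 held no peak in any library.

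Among the noncoding genes of the maternal copy, Meg3 had the strongest peaks and Rian the fewest. The region at the Meg3 start, chr12:109540648-109541236, had folds of 6.50 (CPN 1), 6.80 (CPN 2) and 4.02 (CSMN), and 76.1, 79.9 and 72.0% of each list's peaks had a lower fold. It was among the 5 highest folds of the domain in every list. The summits lay at −3, −4 and −4 bp from the RefSeq start of the window printed above, of which peaks covered 300, 300 and 269 bases. This was the closest match of summits to a start among the member genes with a promoter window. Another RefSeq promoter window of Meg3, chr12:109545148-109545447, held no peak in any library.

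Inside Meg3, chr12:109542805-109543171 (5.05, 5.92 and 3.74) and chr12:109545910-109546456 (5.20, 4.82 and 3.87) also had peaks in all 3 libraries. They were within the 5 highest folds of the domain in the CSMN list, and the former also in CPN 2. Further along, chr12:109558322-109558719 was CPN-only, with folds of 4.15 and 4.2 and a −log10 q of 11.6 and 9.65. A CPN 2 peak at chr12:109553182-109553453 (3.28) had no partner. All 7 regions overlapping Meg3 had a CPN 2 peak, 5 had a CPN 1 peak and 3 had a CSMN peak, and the CSMN peaks were those nearest the start.

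Between Dlk1 and Meg3, the interval in which the differentially methylated region lies, 14 regions were assigned by midpoint, 1 of them the region at the Meg3 start. Apart from that, 1 region had peaks in all 3 libraries, chr12:109528004-109528625, which lies 12371 bp before Meg3 inside the predicted gene Gm34081, with folds of 3.96, 3.40 and 2.95. CPN-only regions of the interval were chr12:109473663-109473967 (3.12 and 3.33), chr12:109491772-109492252 (3.82 and 3.36), chr12:109511545-109511712 (3.24 and 3.24) and chr12:109532500-109533047 (2.70 and 2.98). Methylation was not measured in these files, so which of these lie in the methylated interval was not tested.

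CSMN and CPN 1 shared a region of the same interval. At chr12:109509712-109509969, inside Gm34017 and Gm34081, the CSMN fold was 3.19 with a −log10 q of 8.57, the CPN 1 fold was 2.57 with 3.96, and CPN 2 had no peak. With a −log10 q of at least 5 required in every list, this became the 1 CSMN-only region of the domain, 2.22% of 45 regions beside 4.05% of all regions kept by that rule. At that threshold 17 regions were CPN-only, 37.8% beside 29.5%. Of these, 10 were CPN-only in the full lists as well. The others had a CSMN peak in the full lists that the threshold removed.

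Rian, a host of C/D box snoRNAs, had 3 overlapping regions, all in its first part and none with a CSMN peak. The CPN-only region chr12:109608486-109608748 had folds of 2.88 and 2.91. CPN 2 alone had chr12:109612986-109613106 (2.93) and CPN 1 alone chr12:109613237-109613469 (2.28), which lie side by side without overlap. The nearest CSMN peak was 7907 bp from the gene. The RefSeq promoter window of Rian held no peak in any library.

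After the last Rian peak came the longest stretch without a peak, chr12:109613470-109709981, 96.5 kb with 24 genes. It held all 19 snoRNA genes of the domain and 3 microRNA genes, Mir370, Mir882 and Mir379. No snoRNA gene had a peak within 1 kb in any library. No matching share over all snoRNA genes was computed, so nothing is read from that. The longest stretch without a peak was in this place for CPN 1 (98.4 kb) and for CPN 2 (133.1 kb), while that of CSMN lay between Mirg and Dio3, at chr12:110044788-110187328 (142.5 kb). The lists give nothing under their thresholds, so a stretch without a called peak is not shown to be closed.

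**Figure D3:**
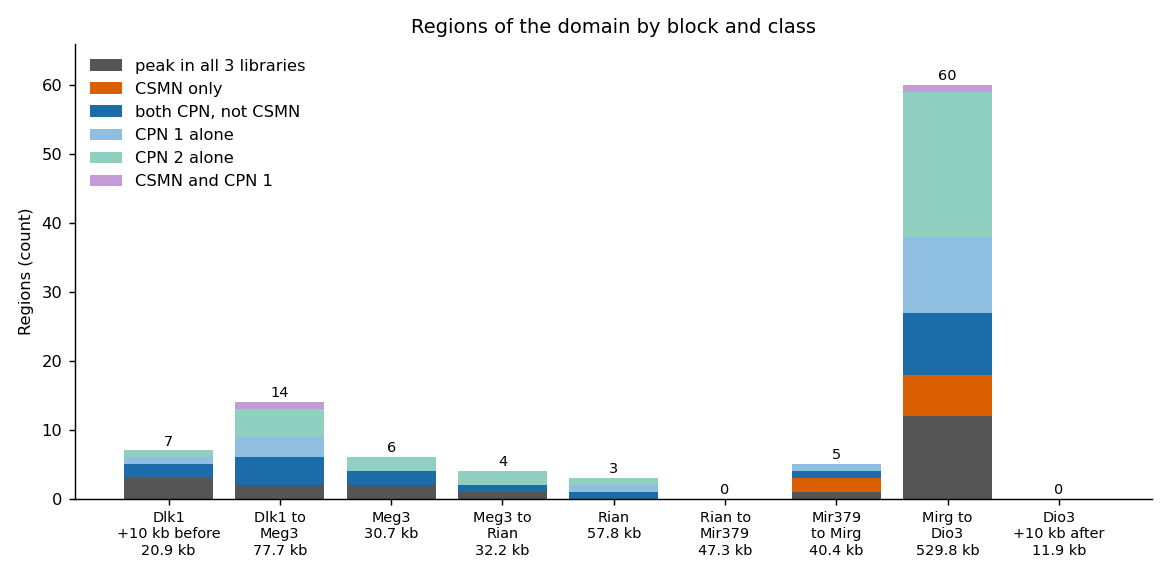
Number of regions in each block of the domain, in genome order, split by class; block lengths in kb stand under the names, bars start at 0 and the number above a bar is its total. The block from Mirg to Dio3 holds 60 of the 99 regions in 529.8 kb and the block from Rian to Mir379 holds 0. In the full lists shown, CSMN-only regions fall in the last 2 blocks that hold any region.

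By block, the density of regions fell from 33.6 per 100 kb at Dlk1 to 18.0 between Dlk1 and Meg3, 19.5 in Meg3, 12.4 from Meg3 to Rian and 5.19 in Rian. It was 0 from Rian to Mir379, 12.4 in the microRNA block from Mir379 to the end of Mirg, and 11.3 from Mirg to Dio3. The domain as a whole had 11.7 regions per 100 kb beside 7.77 on chromosome 12 between its first and last region. None of the 34 regions before Mir379 was CSMN-only, and the 8 CSMN-only regions were 2 in the microRNA block and 6 between Mirg and Dio3.

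In the microRNA block, CSMN had peaks over Mir411 and Mir487b where neither CPN library had one, and the CPN libraries shared a peak near the end of Mirg that CSMN lacked. The block spans 40.4 kb from Mir379 to the end of Mirg and held 5 regions. The peak over Mir411, chr12:109709982-109710325, was 344 bp wide with a CSMN fold of 2.43 and a −log10 q of 3.14, and 25.0% of CSMN peaks had a lower fold. The hairpin printed above lay wholly inside it, with the summit 57 bp from the hairpin's centre.

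The same peak lay 857 bp from Mir379 and 313 bp from Mir299a, which themselves overlapped no peak. CPN 2 had no peak near these 3 genes, and its nearest was 37063 bp from Mir379, 35932 bp from Mir411 and 35488 bp from Mir299a. CPN 1 had one nearer, at 2720, 1589 and 1145 bp. That CPN 1 peak, chr12:109711845-109712007, overlapped the end of Mir380 with a fold of 2.66 and a −log10 q of 3.35, and its summit lay 103 bp from the centre of that hairpin. CPN 1 and CSMN thus each had a low peak in this cluster of neighbouring hairpins, at different hairpins.

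The second CSMN-only peak of the block, chr12:109727186-109727782, was 597 bp wide with a fold of 2.52 and a −log10 q of 3.55, and 31.0% of CSMN peaks had a lower fold. It covered the whole Mir487b hairpin, with the summit 74 bp from its centre, and lay 290 bp from Mir381. The nearest CPN peaks to Mir381 were 14815 bp away in CPN 1 and 19292 bp in CPN 2. The CSMN peak was thus closer to Mir381 than any CPN peak, which is part of the pattern the domain was chosen for. That peak came from 1 library and was lost at a −log10 q of 5.

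**Figure D4:**
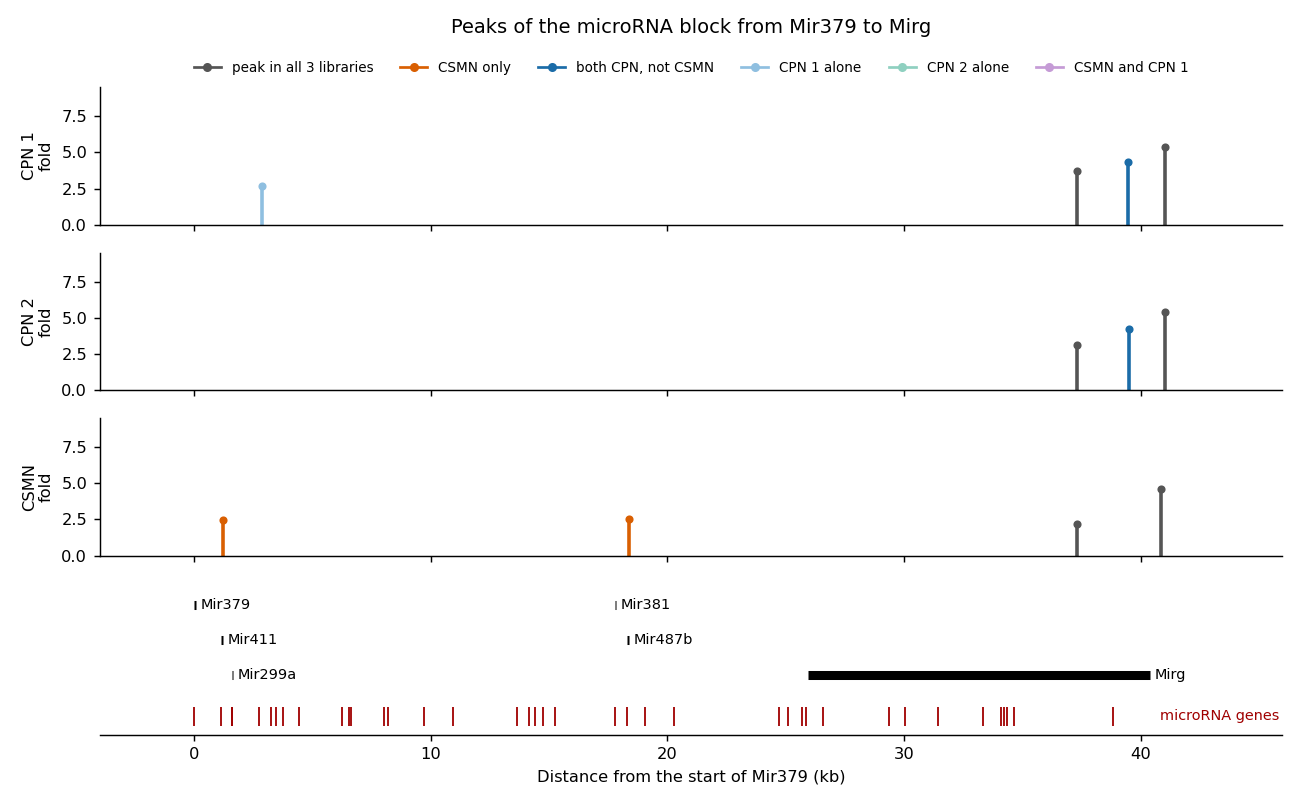
The microRNA block from Mir379 to Mirg: distance from the start of Mir379 (kb) on the horizontal axis and the authors' fold per peak on the vertical axes, 1 panel per library, above the member genes, Mir487b and the starts of microRNA genes. CSMN has peaks of 2.43 and 2.52 at Mir411 and Mir487b, CPN 1 has 2.66 at Mir380, CPN 2 has none there, and the peaks at the end of Mirg follow on the right.

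Mirg, the noncoding transcript at the 3′ end of the block, overlapped 2 regions, both near its end. One, chr12:109746177-109746521, had peaks in all 3 libraries with folds of 3.74, 3.13 and 2.17. The other, chr12:109748450-109748672, was CPN-only with folds of 4.31 and 4.25 and a −log10 q of 18.2 and 15.0, and it lay 490 bp from Mir3072. It was the strongest CPN-only region of the domain by the −log10 q of CPN 1.

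A further region, chr12:109749770-109750235, lay 312 bp past the end of Mirg. Its folds were 5.35, 5.38 and 4.57, and the last was the highest of any CSMN peak in the domain, above 77.0% of the CSMN list. The promoter window of Mirg held no peak. Between the Mir487b peak and the Mirg peaks, 15 microRNA genes from Mir539 to Mir410 lay in 18.4 kb without a peak. They include Mir134 and Mir409, whose nearest peaks were 6357 and 3018 bp away in CSMN, 11968 and 2941 bp in CPN 1 and 11979 and 2952 bp in CPN 2.

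Of the 61 microRNA genes of the domain, 57 overlapped no peak in any library. A CSMN peak overlapped 3, a CPN 1 peak 2 and a CPN 2 peak 1, and within 1 kb the numbers were 11, 9 and 6. No matching share over all microRNA genes was computed for the 57 or for the numbers within 1 kb, so nothing is read from them. The 11 also include genes beside the CSMN-only peaks the domain was chosen for. The genes with a peak were Mir411 and Mir487b in CSMN, Mir380 in CPN 1, and Mir1247 in all 3. Mir1247 lay wholly inside the peaks of all libraries. Among all 1228 microRNA genes of the gene table, 14.0% overlapped a CPN 1 peak, 13.8% a CPN 2 peak and 11.4% a CSMN peak.

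Over the genome, 6 of the 1228 microRNA genes, or 0.489%, overlapped a CSMN-only region, 27 a CPN-only region and 132 a region with peaks in all 3 libraries. Mir411 and Mir487b are 2 of those 6. Since a CSMN-only peak at this place is what the domain was picked for, the count describes the choice and supports nothing further.

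Between Mirg and Dio3, the highest CPN folds of the domain lay far from any member gene, at sites where CSMN had a peak too. The interval is 529.8 kb long, holds no coding gene and had 60 regions. The highest CPN folds of the domain were at chr12:109958784-109959278, 209326 bp from Mirg, with 7.05, 8.96 and 4.45, above 78.7, 87.1 and 76.1% of the respective lists. Next in both CPN lists was chr12:109830387-109831125, with 6.63, 7.75 and 3.73. At chr12:109838931-109839559 the folds were 5.46, 5.48 and 2.33.

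The widest region, chr12:110187120-110189451, spanned 2332 bp with folds of 4.56, 3.91 and 3.31. In all, 7 regions supplied the 5 highest folds of the 3 lists, and 2 of them were among the 5 of every list, that at the Meg3 start and that at chr12:109958784-109959278. Over the 21 regions with peaks in all libraries, the summits of CPN 1 and CPN 2 lay a median of 28 bp apart, and the larger of the distances from the CSMN summit to them had a median of 126 bp. The latter is the larger of 2 distances and so is not a like comparison with the former.

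The CSMN-only regions of the interval were 6 low peaks. They were chr12:109950042-109950270 with a fold of 2.36, 2564 bp from Gm34554, chr12:110026271-110026396 with 2.17, inside Gm40574, and chr12:110044666-110044787 with 2.26, 1641 bp from Gm34719. The others were chr12:110226004-110226250 with 2.25, inside Gm40576, chr12:110264906-110265156 with 2.12 and chr12:110269740-110269909 with 2.02, the last 2 being 10228 and 5475 bp from Dio3os. The first lay 911 bp from a region with peaks in all 3 libraries, chr12:109948061-109949131, and the second ended 34 bp before such a region, chr12:110026430-110027034, so these peaks stood beside sites that CPN libraries also held open.

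The interval also held 9 CPN-only regions. The strongest in both CPN lists, chr12:109827339-109827747, inside the pseudogene Gm9661, had folds of 4.74 and 5.05. At chr12:109975671-109975985 the folds were 4.15 and 2.82, at chr12:110045884-110046116 they were 3.43 and 3.74, and at chr12:110197358-110197612 they were 3.45 and 3.83. The rest were low in both lists: chr12:109839711-109839842 (2.24 and 2.35), chr12:109871065-109871370 (2.78 and 2.92), chr12:109917948-109918184 (2.55 and 2.56), chr12:110092714-110093257 (2.78 and 2.92) and chr12:110197733-110197866 (2.21 and 2.33). CSMN shared a region with CPN 1 alone at chr12:109895245-109895435, 113 bp from the pseudogene Gm3379, with 3.12 in CPN 1 and 2.34 in CSMN.

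Within each list, regions with peaks in all 3 libraries had the highest median fold. The 8 CSMN-only peaks had folds of 2.02 to 2.52, with a median of 2.25, and the CSMN peaks of regions shared by all had 2.0 to 4.57, with a median of 2.92. Over the genome the corresponding CSMN medians were 2.34 and 3.55. A −log10 q of 5 was reached by 0 of 8 CSMN-only peaks in the domain and 14 of 23 CSMN peaks in regions shared by all, or 60.9%. Over the genome those shares were 14.4 and 74.1%. In the domain and over the genome alike, CSMN-only peaks were lower than the CSMN peaks of shared regions by these measures.

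The CPN-only regions are given here within the CPN lists. In CPN 1 they had folds of 2.15 to 4.74, with a median of 3.10, and in CPN 2 of 2.33 to 5.05, with a median of 2.98. Both CPN lists gave a −log10 q of at least 5 in 10 of the 20 CPN-only regions and neither did in 9. That value was reached by 55.0% of CPN-only peaks of the domain in CPN 1 and 47.6% in CPN 2, beside 73.1 and 69.7% over the genome. Peaks held by CPN 1 alone had a median fold of 2.57 and those by CPN 2 alone 2.92.

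**Figure D5:**
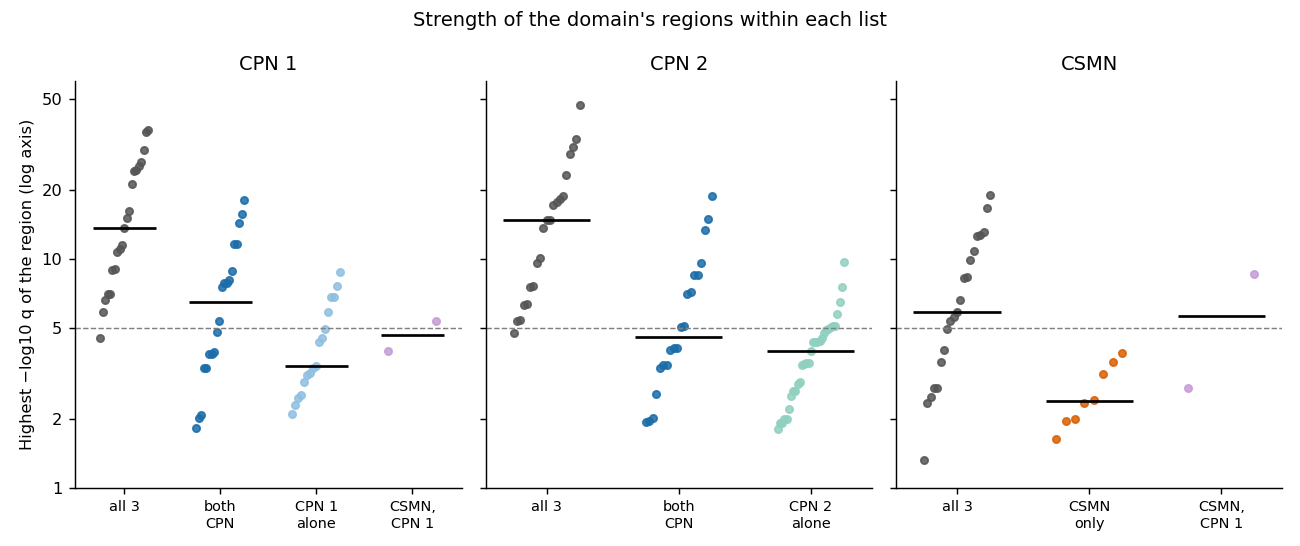
Highest −log10 q of each region of the domain (log axis) in CPN 1, CPN 2 and CSMN, by class; each point is a region, the black line is the class median and the dashed line marks 5. All 8 CSMN-only points lie under the dashed line, while most points of regions shared by all 3 libraries lie above it in the CPN lists.

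The balance of CSMN-only and CPN-only regions depended on the length of the lists. When the CPN lists were shortened to the 98067 peaks of lowest p, as many as CSMN has, the domain held 52 regions, of which 10 were CSMN-only, 19.2% beside 22.2% of all regions, and 8 were CPN-only, 15.4% beside 16.0%. The CSMN-only count was then the higher, where it had been the lower in the full lists. Only the CPN lists were shortened, so the CSMN-only count could not fall and the direction of its change was fixed in advance. Both CSMN-only regions of the microRNA block stayed CSMN-only in lists of equal length, which was fixed in advance for the same reason.

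At the edges of the window, the last region before it, chr12:109441520-109441695, was CPN-only with folds of 3.05 and 3.53, and the first inside was CPN-only with 3.07 and 3.12 at chr12:109443400-109443538. The last inside was that over the Dio3 start, and the first after it, chr12:110294153-110294296, was a CPN 1 peak of 3.01. Without the 10 kb flanks the domain held 94 regions, 8 of them CSMN-only.

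Other imprinted loci had class shares near those of all regions for CSMN-only and CPN-only regions, and the order of these classes turned with the length of the lists. The regions within 10 kb of 36 other imprinted genes numbered 428, and 154 of them, 36.0%, had peaks in all 3 libraries, beside 30.6% of all regions and 21.2% in the Dlk1 to Dio3 domain. CSMN-only regions were 38, or 8.88% (6.36 to 12%), beside 11.8% of all regions, and CPN-only regions 79, or 18.5% (14.9 to 22.5%), beside 19.4%. In lists of equal length these loci had 65 CSMN-only and 46 CPN-only regions. Here too the CSMN-only count could not fall, because only the CPN lists were shortened. In the full lists, the CSMN-only share of the CSMN-only and CPN-only regions together was 32.5% at these loci, 28.6% (13.2 to 48.7%) in the domain and 37.7% over all regions. The 3 shares lie within the interval of the domain.

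By gene, 13 of the 36 had a CSMN-only region, 25 a CPN-only region and all 36 a region with peaks in every library. The same count over all genes was not made, so these numbers have no background beside them. Windows of neighbouring genes overlap, such as those of Airn and Igf2r, so the same region can count for several genes. The gene with the most CSMN-only regions was the long gene Trappc9, with 15 of the 38 beside 18 CPN-only, followed by the growth factor receptor adaptor Grb10, with 5 beside 4, and the potassium channel gene Kcnq1, with 4 beside 13. Rasgrf1 had 3 beside 3, Ddc and Plagl1 had 2 each, beside 2 and 1, and Usp29 had 2 beside 4. Igf2, Sgce, Peg10, Commd1, Kcnk9 and Peg3 had 1 each, that of Sgce and Peg10 being the same region. Trappc9, Kcnq1 and Airn had the most CPN-only regions, with 18, 13 and 11, and Airn had 0 CSMN-only.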

How the data were processed

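ATAC-seq peak lists of 2 CPN libraries and 1 CSMN library were used, 1 list per library, so peaks were taken as called per library. Per the submitters' processing notes, the tools were MACS2 2.2.7.1, BWA 0.7.17 and bedtools 2.29.2 with the build mm10, and the notes give no roles. Not given in the sources used here are read totals, filters, duplicate removal and the transposase shift. The fold (ratio at the summit), the −log10 p, the −log10 q and the offset of the summit are the authors' deposited values. The deposited score was checked to be within 1 of 10 times the −log10 q cut to a whole number.

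Peaks overlapping by at least 1 bp were merged with Python 3.11.15 and pandas 2.3.3. Bedtools 2.31.1 gave a difference of 0 regions, and the merge was tested on simulated data. The fold was used only to describe and rank peaks within a list. Exact intervals came from SciPy 1.17.1. Genes and sequences came from RefSeq tables of GRCm38.p6 without exons; no genome was used, so peak sequences are not printed. All 36 other imprinted genes were matched, 1 by an older symbol.

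The members and lists were chosen with earlier results of these data known. Named were the members, every CSMN-only and CPN-only region, regions within 1 kb of a member, the 5 highest folds per list, and other imprinted genes with a CSMN-only region or among the 3 with most CPN-only regions. Mir380, Mir1247, Mir409 and the other genes outside this rule were named after their values were seen. Alternatives were a −log10 q of at least 5, lists of equal length, overlap over 50% of the shorter peak, joining within 500 bp, other flanks, and leaving out each CPN library. The peaks at CPN marker genes are not reported here.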

Additional observations from a re-analysis of the deposited data

How the results depend on the processing

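When only peaks whose −log10 q reached 5 were kept, the domain held 45 regions, of which 13 had peaks in all 3 libraries and 1 was CSMN-only (2.22%). The microRNA block then held 0 CSMN-only and 2 CPN-only regions, and the other imprinted loci 7 CSMN-only regions. Of those 2, chr12:109746177-109746521 had peaks in all 3 libraries in the full lists, with a CSMN −log10 q of 2.5. In lists of equal length the domain held 52 regions, with 8 CPN-only and 19.2% CSMN-only, and the other imprinted loci held 65 CSMN-only and 46 CPN-only regions. Without CPN 1 or without CPN 2, a CPN-only region needs a peak in the other CPN library alone, so CPN-only counts could not fall. They were 51 and 37 in the domain, against 20 with both libraries. In the microRNA block they were 1 and 2 against 1, and at the other imprinted loci 156 and 134 against 79. Of the values that answer a comparison, 50 changed by less than 1.5 times or within their interval and 17 changed by more; of the values by member, 91 and 29 did so. In lists of equal length the CSMN-only count of the domain, 10, passed the CPN-only count, and it could not fall because only the CPN lists were shortened.

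Both CSMN-only regions of the microRNA block stayed CSMN-only with peaks within 500 bp joined, and both were lost at a −log10 q of 5. They were also CSMN-only in lists of equal length, with overlap over 50% of the shorter peak, and without either CPN library. Those settings cannot give a CPN peak to a region that has none, so that outcome was fixed by construction. Joining within 500 bp made the CSMN-only region at chr12:109950042-109950270 one of CSMN and CPN 1, and that at chr12:110026271-110026396 one of all 3 libraries. No paired analysis was possible because the groups share only the replicate number 1 and no result comes from a test. Depth was unknown, since the lists give no read counts, and CSMN had no replicate.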
